A study of Rattus norvegicus with 2 samples.

Results

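The cell division and DNA replication genes described here were 40 genes chosen by name, 17 that act in S phase and 23 that act in mitosis. A probe named for the gene was found for 39 of them, and all 39 were well above background on both arrays, among 21096 genes that passed the same filter and 36174 genes named on the array. No probe carried the name Cenpe, a kinetochore motor. A probe that the files describe as Cenpe under a transcript name, outside the rule, had a signal of 28.2 in C and 23.7 in RS, a log2 difference (RS minus C) of -0.15 within its spot error of 0.25, and was not counted. RNA of the cervical lymph nodes of male Sprague-Dawley rats aged 10 to 12 weeks was hybridized to 2 one-color Agilent arrays of 60-base probes, 1 for the control group (C) and 1 for the restraint stress group (RS). All rats were of the same strain, sex and age range, and restraint was the treatment that separated the groups. The labels give no restraint time, and the number of rats behind each array was not given in the sources used here. With 1 array in each group, no difference has a replicate check and no test was run.

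A dividing cell first copies its DNA in S phase and then separates the copies in mitosis. Copying needs a ring-shaped helicase of the Mcm proteins, factors that load and start it, the Pcna clamp, and enzymes that supply nucleotides. Mitosis needs cyclin B with Cdk1, further kinases, a checkpoint that holds the cell until chromosomes are attached, and motor proteins that build the spindle and cut the cell. In lymph nodes, dividing cells are known mainly from germinal centers, where B cells multiply, and from T cells and plasma cell precursors that have met antigen. Because whole nodes were measured, more cells in division and more RNA per dividing cell cannot be told apart. Both readings take a change in the dividing cells for granted. The size of the differences also depended on the scaling between the arrays, as described below. The part of other cells or tissue in the samples, and of differences between animals, was not tested.

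Most of the genes had a slightly higher normalized signal on the RS array than on the C array. Of the 39 genes, 35 had a log2 difference (RS minus C) above 0, compared with 52.1% of all genes and 58% of the genes with the brightest signals (the upper 25%), where many of these genes lie. No gene was 2-fold higher, a size reached by 3.46% of all genes, and none was 2-fold lower, a size reached by 4.28%. The median log2 difference of the 39 genes was 0.18, with values from -0.41 to 0.36, whereas the median of all genes was 0.016. The middle 50% of the values spanned 0.11 log2 units, compared with 0.41 for all genes and 0.26 for the brightest 25%. The median spot error (described below) was also smaller, at 0.144 compared with 0.206 for all genes and 0.204 for the brightest 25%. For other listed genes of the same phases, the middle 50% spanned 0.26 for S phase and 0.19 for mitosis. With the raw signals, without scaling between the arrays, 31 of the 39 genes were higher and 8 were lower on the RS array. Of all genes, 38.1% were higher without scaling.

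S phase and mitosis genes differed little from each other. The median log2 difference was 0.18 for the 17 S phase genes, which is 13.2% higher, and 0.18 for the 22 mitosis genes, which is 12.9% higher, and the medians differed by 0.0041. Above 0 were 14 of the S phase genes and 21 of the mitosis genes. Below 0 were 47.9% of all genes and 4 of the 39, Mcm3, Cdt1, Rrm2 and Ttk, of which the first 3 belong to S phase.

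The precision of each value was judged by the spot error, which adds up the errors given by the scanner software for a probe on both arrays (as the root of the summed squares). It covers the spot measurement and not the difference between animals. It ranged from 0.065 to 0.25 log2 units and was smallest for probes printed in up to 10 spots, whereas 17 of the genes had 1 spot on each array. Beyond 2 spot errors, 10 genes were higher in RS, compared with 10.6% of all genes, and 1 was lower, compared with 9.98% of all genes. The 2 sets are not alike at this threshold, since the median spot error was 0.144 for the 39 genes and 0.206 for all genes. Many of the 39 could therefore pass it at a smaller difference than a typical gene. The 10 comprised 6 S phase genes (Mcm2, Mcm4, Mcm5, Mcm7, Pcna and Rrm1) and 4 mitosis genes (Mki67, Top2a, Bub1 and Cdk1), and the lower gene was Mcm3. These counts depended on the scaling. Without scaling between the arrays, only Mki67 was higher beyond 2 spot errors, compared with 7.68% of all genes, and Mcm3, Rrm2 and Ttk were lower, compared with 14.3%. With the 75th percentile taken over spots instead of probes, 6 genes (Mcm2, Mcm4, Rrm1, Mki67, Top2a and Cdk1) were higher and 2 (Mcm3 and Ttk) were lower. Of all genes, 8.92% were higher and 12.1% were lower in that setting.

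**Figure D1:**
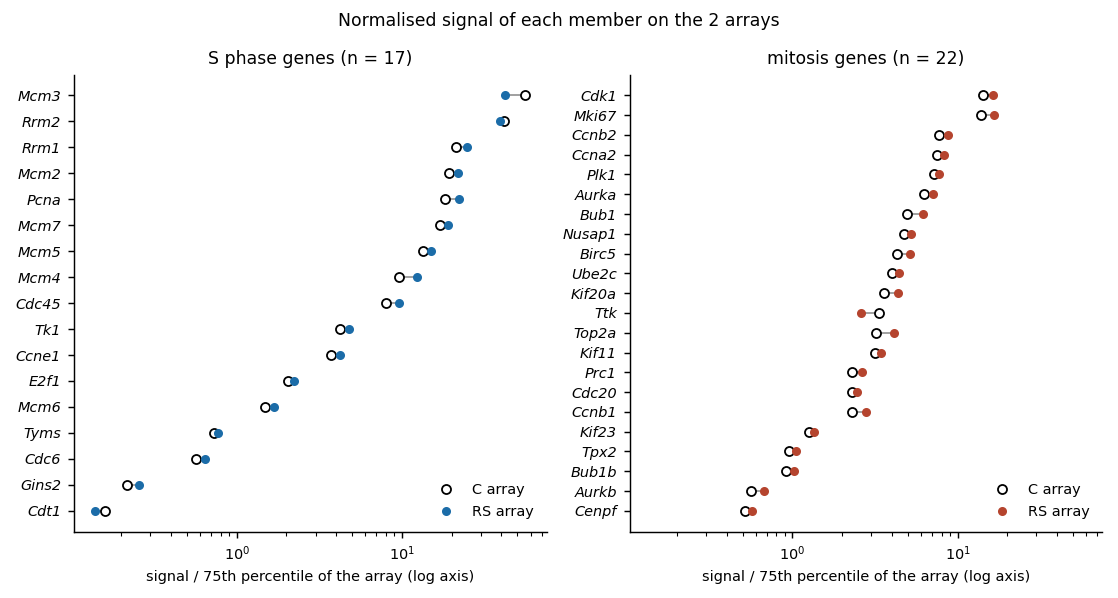
Normalized signal of each gene on the C array (open circles) and the RS array (filled circles), as a multiple of the 75th percentile of that array on a log axis, for 17 S phase genes on the left and 22 mitosis genes on the right. The RS point lies to the right of the C point for 35 genes and to the left for Mcm3, Rrm2, Cdt1 and Ttk. Signals of different probes are not comparable as levels.

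The promoters of the S phase and mitosis genes differed in the motifs they hold, and some are printed here because these classes were compared. RefSeq sequence of the GRCr8 assembly, from 250 bases before to 50 bases after a start site, was on hand for 32 of the 40 genes, Cenpe among them. An E2F motif, searched as TTCCCGC or TTGGCGC or TTCGCGC or TTGCCGC on both strands, was found in 8 of 13 S phase promoters (61.5%) and in 4 of 19 mitosis promoters (21.1%), compared with 9.52% of all 33469 promoters. A cell cycle homology region (CHR), searched as TTTGAA or TTCGAA on both strands, was found in 3 of the S phase promoters (23.1%) and in 13 of the mitosis promoters (68.4%), compared with 19.7% of all promoters. The CCAAT box, searched as CCAAT on both strands, stood in 8 of the S phase (61.5%), 16 of the mitosis (84.2%) and 37.5% of all promoters. A CHR and a CCAAT box together were found in 12 of the mitosis promoters (63.2%) and in 7.95% of all promoters. Overlapping matches were kept. A match is a string of letters and does not show that a factor binds there.

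The 120 bases before the start site are shown for 3 mitosis and 3 S phase genes, chosen after the windows had been seen because they hold the motifs of their class. Capitals mark the motifs, and each sequence runs 5′ to 3′ toward the start site.
Cdk1, chr20:19265173-19265292, + strand: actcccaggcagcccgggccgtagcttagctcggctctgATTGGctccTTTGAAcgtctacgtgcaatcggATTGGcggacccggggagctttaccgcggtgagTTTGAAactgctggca
Ccnb2, chr8:79981659-79981778, - strand: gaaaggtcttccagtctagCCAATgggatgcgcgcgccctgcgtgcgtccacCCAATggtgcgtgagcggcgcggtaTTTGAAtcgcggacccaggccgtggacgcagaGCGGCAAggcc
Prc1, chr1:143659361-143659480, + strand: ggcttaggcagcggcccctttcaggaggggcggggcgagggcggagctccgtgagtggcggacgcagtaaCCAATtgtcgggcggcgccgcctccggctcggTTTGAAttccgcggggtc
Mcm2, chr4:122918095-122918214, - strand: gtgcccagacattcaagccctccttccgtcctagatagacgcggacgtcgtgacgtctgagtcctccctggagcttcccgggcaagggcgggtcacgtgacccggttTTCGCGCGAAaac
Mcm5, chr19:13488693-13488812, + strand: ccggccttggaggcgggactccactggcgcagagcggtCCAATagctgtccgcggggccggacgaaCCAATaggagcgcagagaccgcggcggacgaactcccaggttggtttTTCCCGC
Tyms, chr9:120776084-120776203, - strand: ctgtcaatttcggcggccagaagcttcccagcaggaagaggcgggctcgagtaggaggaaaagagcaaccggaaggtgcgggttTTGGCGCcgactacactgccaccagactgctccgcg
In Cdk1, the kinase that drives entry into mitosis, CCAAT boxes read on the opposite strand (ATTGG) began at positions -81 and -49, counted from the start site, and CHRs began at -72 and -16. In Ccnb2, which encodes cyclin B2, CCAAT boxes began at positions -101 and -68, a CHR at -43, and an E2F motif at -11. In Mcm2, E2F motifs of opposite strands overlapped at positions -13 and -10. The E2F motif of Mcm5 began at -7 and that of Tyms at -36.

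**Figure D2:**
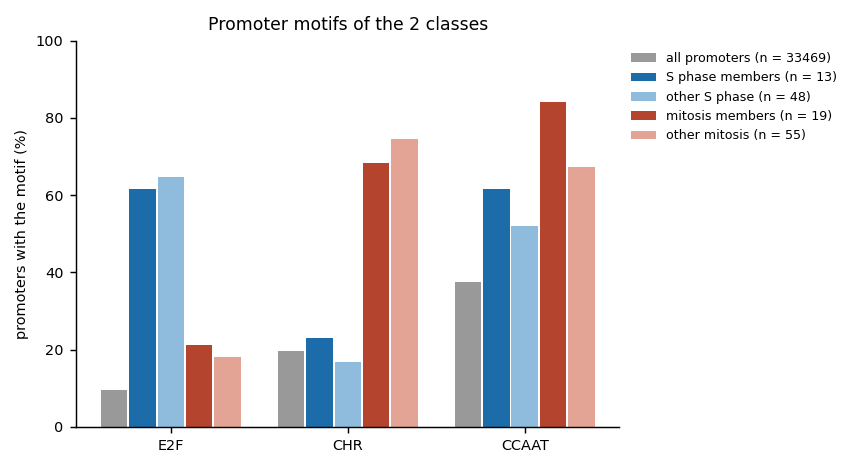
Share of promoters, in percent, that hold an E2F, CHR or CCAAT motif, for all promoters of the RefSeq table (gray), S phase genes (blue) and mitosis genes (red), with lighter bars for other listed genes of the same phase. E2F motifs were found in 61.5% of the S phase and 21.1% of the mitosis promoters, and CHR motifs in 23.1% and 68.4%.

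The log2 differences were not larger for the genes that hold the motif of their class. The 13 mitosis genes with a CHR had a median log2 difference of 0.17, and the 5 without it had 0.28. The 8 S phase genes with an E2F motif had a median of 0.17, and the 5 without it had 0.22. These are descriptions over few genes, and no difference between them was tested.

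Of the replicative helicase, the ring of Mcm2 to Mcm7 that unwinds DNA, 5 of 6 subunits were higher in RS and Mcm3 was lower. The signal of Mcm4 was 1809 in C and 2173 in RS, a log2 difference of 0.36 (spot error 0.14) and 28.6% higher, the largest of all the genes. The signal of Mcm2 was 3625 in C and 3855 in RS, a log2 difference of 0.19 (spot error 0.066). Mcm5, with a signal of 2526 in C and 2654 in RS, and Mcm7, with 3200 and 3349, had log2 differences of 0.17 and 0.16. These 3 subunits were read from 9 or 10 spots on each array, and their differences were more than 2 spot errors, except that without scaling between the arrays none of the 3 was, and with the 75th percentile over spots Mcm5 and Mcm7 were not. Mcm6 had a log2 difference of 0.18 and was read from 1 spot on each array.

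Mcm3 stood apart from the other subunits of the ring. Its probe had a signal of 10526 in C and 7403 in RS, a log2 difference of -0.41 (spot error 0.070) from 9 spots in C and 8 in RS. The spots did not overlap, since the lowest in C was at 9074 and the highest in RS at 7818. The second Mcm3 probe, which was much dimmer, had a signal of 42.2 in C and 37.7 in RS, a log2 difference of -0.063 (spot error 0.23). The bright Mcm3 probe and the only Ttk probe each hold a run of 7 alternating A and G bases, and probes with such runs were lower on the RS array across all genes. The 852 genes whose probe has a run of 6 or 7 had a median log2 difference of -0.27, and the 161 genes with a longer run had -2.79. Of the 852 genes, 264 were 2-fold lower, and of the 161 genes, 144 were. Both sets together had 40.3% of genes 2-fold lower, compared with 4.28% of all genes.

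The probe stretches with the longest run in capitals are shown because the lowest values of each class come from them. They are 30 bases of each probe, and the Mcm4 probe is included because it holds a run and was higher. The Ttk stretch also holds a run of 6, left in lower case.
Mcm3, bases 1 to 30 of the probe: GAGAGAGctttctttgcaattaggctagta
Ttk, bases 31 to 60 of the probe: acttctgacaaaaAGAGAGAaagagagtga
Mcm4, bases 31 to 60 of the probe: ttaactttctttatAGAGAGttttccccct
Mcm4 was higher by 0.36 and 0.29 with its probes that hold a run of 6, and by 0.37 with a probe without a run, which had a signal of 123 in C and 148 in RS. Without the genes read from probes with runs, 34 of 36 genes were above 0, compared with 53.5% of all genes without runs. The mitosis genes then had 21 of 21 values above 0, from 0.088 to 0.35. The part of the run in the values of Mcm3 and Ttk was not tested.

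Among the factors that load and start the helicase, Cdc45, which joins the ring when it starts to unwind, had a signal of 1511 in C and 1701 in RS, a log2 difference of 0.27 (spot error 0.14). Gins2, a subunit of the GINS complex that binds next to Cdc45, had a signal of 41.2 in C and 44.9 in RS, a log2 difference of 0.22, which was within its spot error of 0.23. Cdc6, which loads the ring on DNA, had a log2 difference of 0.18. Cdt1, its loading partner, had a signal of 30.0 in C and 24.6 in RS, a log2 difference of -0.19 within its spot error of 0.25. Hence the low value of Cdt1 could not be told from spot noise.

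The sliding clamp Pcna, which holds DNA polymerase on its template, had a signal of 3427 in C and 3913 in RS, a log2 difference of 0.29 (spot error 0.14). The enzymes of nucleotide supply were split. Rrm1, the large subunit of ribonucleotide reductase, had a signal of 3997 in C and 4337 in RS, a log2 difference of 0.22 (spot error 0.065), with 10 spots on each array. Rrm2, the small subunit of the same enzyme, had a signal of 7853 in C and 6918 in RS, a log2 difference of -0.084 (spot error 0.070). Its second probe, with a signal of 266 in C and 214 in RS, had a log2 difference of -0.21 (spot error 0.20). The subunits of this enzyme therefore lay on opposite sides of 0, but Rrm2 was within 2 spot errors. Tk1 and Tyms, which make thymidine nucleotides, had log2 differences of 0.18 and 0.082, and Tyms was below 0 without scaling between the arrays. The regulators of entry into S phase, cyclin E1 (Ccne1) and the transcription factor E2f1, had log2 differences of 0.19 and 0.12, each from 1 spot on each array.

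Of the mitosis genes, Top2a and Mki67 are commonly used to mark dividing cells. Top2a, the topoisomerase that untangles chromosomes, had a signal of 605 in C and 722 in RS, a log2 difference of 0.35 (spot error 0.14) and the largest of its class. Mki67, which encodes the Ki-67 antigen, had a signal of 2609 in C and 2928 in RS, a log2 difference of 0.26 (spot error 0.065). Its 10 spots on each array overlapped, since the highest in C was 2776 and the lowest in RS was 2496. The other 3 probes of Mki67 had log2 differences of 0.28, 0.081 and 0.13, all above 0. The probe at 0.081 had a raw signal of 447 in C and 442 in RS, so that its direction came from the scaling.

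All 4 genes of cyclins and their kinase were higher. Cdk1 had a signal of 2671 in C and 2887 in RS, a log2 difference of 0.21 (spot error 0.065) with 10 spots on each array. Ccnb1, the gene of cyclin B1, had a signal of 431 in C and 490 in RS, a log2 difference of 0.28 (spot error 0.14). Ccnb2 had a signal of 1466 in C and 1550 in RS, a log2 difference of 0.18 (spot error 0.14). Ccna2, the gene of cyclin A2, which acts from S phase to early mitosis, had a log2 difference of 0.14.

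The mitotic kinases and the passenger complex were also above 0. Plk1, a kinase needed for spindle formation, had a signal of 1364 in C and 1356 in RS, a log2 difference of 0.090 (spot error 0.066), so that its direction came from the scaling. Aurora kinase B (Aurkb) and survivin (Birc5), partners in the complex that corrects chromosome attachment, had log2 differences of 0.26 and 0.25, with spot errors of 0.21 and 0.20. Aurora kinase A (Aurka), which acts at the spindle poles, had a signal of 1178 in C and 1258 in RS with its bright probe, a log2 difference of 0.19 (spot error 0.14). Its other probe had a signal of 236 in C and 174 in RS, a log2 difference of -0.34 (spot error 0.21), and thus differed in direction.

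Among the genes of the spindle checkpoint, Bub1, a checkpoint kinase, had a signal of 926 in C and 1085 in RS, a log2 difference of 0.33 (spot error 0.14). Bub1b, its relative that restrains the anaphase-promoting complex, had a log2 difference of 0.17. Ttk, the kinase that starts the checkpoint, had a signal of 631 in C and 459 in RS, a log2 difference of -0.36 (spot error 0.20), and was the only mitosis gene below 0. Cdc20 and Ube2c, which work with the anaphase-promoting complex to end the block, had log2 differences of 0.098 and 0.15, and Cdc20 was below 0 without scaling between the arrays. The kinetochore gene Cenpf had a log2 difference of 0.13.

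All 6 motors and bundlers of the spindle and midbody were above 0. Kif20a, a motor of the dividing cell's midzone, had a signal of 679 in C and 769 in RS, a log2 difference of 0.28 (spot error 0.14). Prc1, which bundles microtubules of the midzone, had a log2 difference of 0.20. Tpx2, a spindle assembly factor, had 0.15, and Nusap1, a microtubule bundler, had 0.14. Kif11, which pushes the spindle poles apart, and Kif23, which acts in cytokinesis, had log2 differences of 0.11 and 0.088. The raw signal of Kif23 was 239 in C and 237 in RS, so that its direction came from the scaling. Each of the last 5 was within its own spot error.

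**Figure D3:**
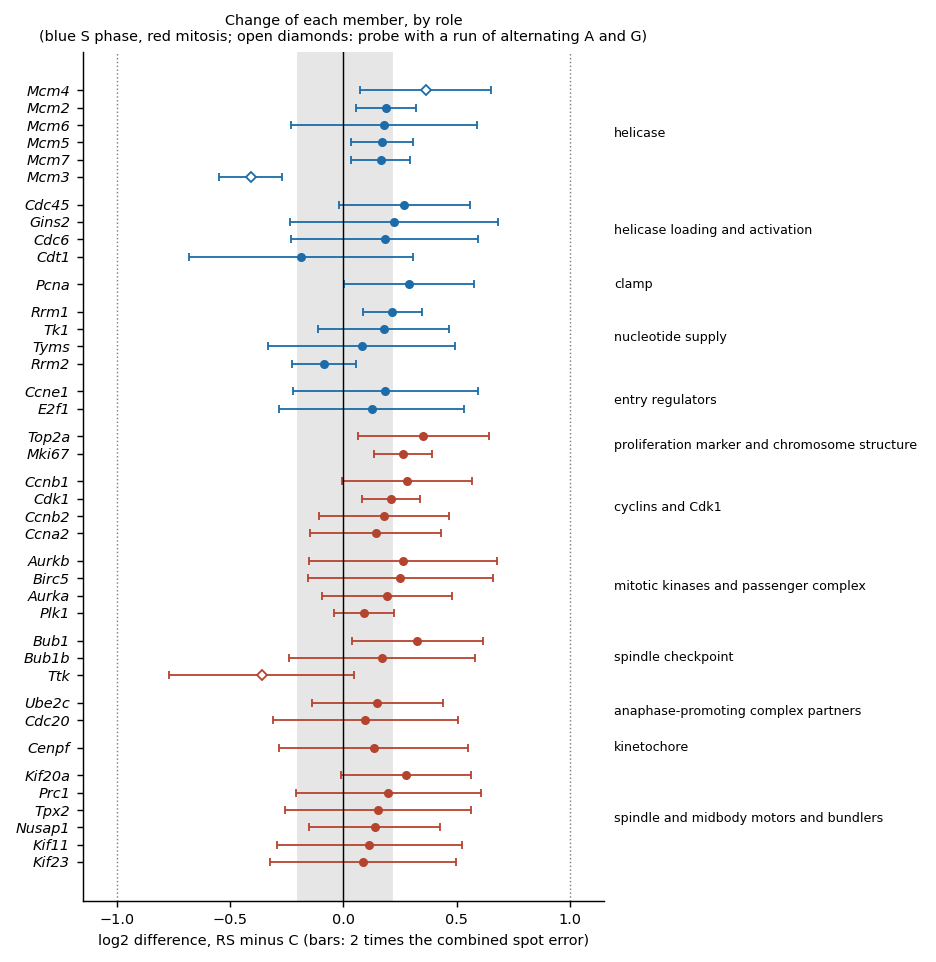
Log2 difference (RS minus C) of each of the 39 genes, grouped by role, with bars of 2 combined spot errors, the middle 50% of all genes as a gray band and dotted lines at 2-fold. The points lie from -0.41 (Mcm3) to 0.36 (Mcm4), none reaches 2-fold, and 11 bars do not cross 0; open diamonds mark probes with a run of alternating A and G bases.

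Where a gene was read by several probes, the probes mostly lay on the same side of 0. Of 15 genes with at least 2 probes above background, 11 had all probes above 0 and 2 (Mcm3 and Rrm2) had all probes below 0. Among the 11, a probe of Mki67 and the dimmer probe of Tk1 were above 0 only after scaling. The probes of Aurka and Gins2 differed in direction. The second Gins2 probe had a signal of 17.1 in C and 10.9 in RS, a log2 difference of -0.56 (spot error 0.39). Both of the discordant probes lie far downstream in their transcripts, at position 5036 for Aurka and 4101 for Gins2, compared with 1518 and 700 for the bright probes. The Aurka positions are counted on different transcripts, and the Gins2 positions on the same transcript. In the rn4 build named in the file headers, the discordant Aurka probe lies at chr3:163267842-163267901 and the bright one at chr3:163271264-163271323, both on the minus strand. The median spread between the probes of a gene was 0.078 log2 units. Some probes of a gene overlap, such as those of Mcm4 at positions 3177 and 3181 and those of Ube2c at 503 and 524. Such probes are not separate readings of the gene. No count over all genes with several probes is given beside these, so the agreement has no comparison.

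**Figure D4:**
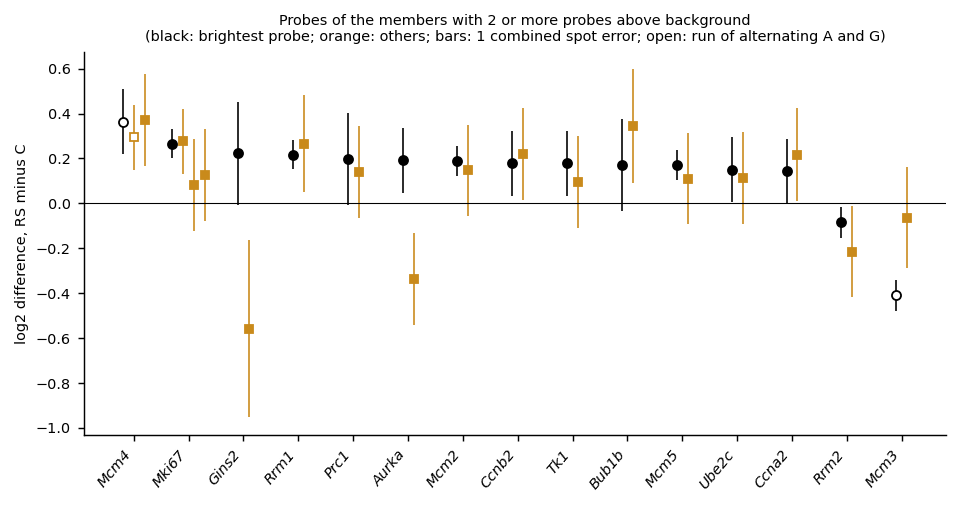
Log2 difference (RS minus C) of each probe above background for the 15 genes with several such probes, with bars of 1 combined spot error. Black circles are the bright probes used for the gene and orange squares the others; open symbols mark runs of alternating A and G bases, and the probes of Gins2 and Aurka lie on both sides of 0.

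Values of other genes of the same phases are given beside those of the 40 names. These lists, too, were chosen with earlier results of these data known, so they are not an independent check. Of 44 other S phase genes listed, 42 were above background, and 30 of these were above 0 (52.1% of all genes) with a median log2 difference of 0.11. Of 60 other mitosis genes listed, 55 were above background, and 54 of these were above 0 with a median of 0.19. Thus the medians of these longer lists were 0.080 log2 units apart, with mitosis genes higher, whereas those of the 40 names were 0.0041 apart. With both sets of names together, 44 of 59 S phase genes and 75 of 77 mitosis genes were above 0. The other S phase genes ranged from -0.23 to 0.65, and none was past 2-fold. Beyond 2 spot errors, 7 of the other S phase genes were higher and 0 lower, and 11 of the other mitosis genes were higher and 1 lower, compared with 10.6% and 9.98% of all genes.

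Only Hmmr, a spindle assembly factor and hyaluronan receptor, passed 2-fold among these genes, with a signal of 13.2 in C and 31.1 in RS, a log2 difference of 1.33 (spot error 0.33) from 1 spot on each array. The 1 gene below 0 in the list of other mitosis genes was Kif18b, a kinesin of microtubule ends, with a signal of 510 in C and 351 in RS and a log2 difference of -0.44, and its probe also holds a run of 7 alternating A and G bases. The lowest and highest of the other S phase genes, and some further ones, were chosen after their values were seen. Prim1, the catalytic subunit of primase, had a signal of 2140 in C and 1699 in RS, a log2 difference of -0.23 (spot error 0.20), and Pola1, of polymerase alpha, had 0.51 (spot error 0.26). The kinase that fires origins, Cdc7, and its activator Dbf4 had log2 differences of 0.52 and 0.45. Gins1, of the GINS complex, had a signal of 481 in C and 704 in RS, a log2 difference of 0.65 (spot error 0.20).

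**Figure D5:**
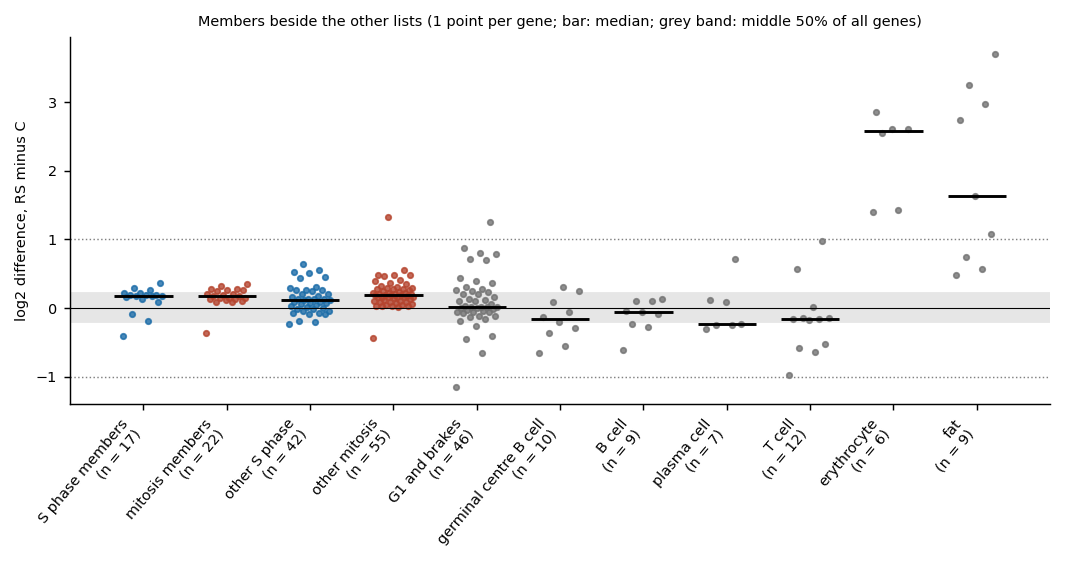
Log2 difference (RS minus C) of each gene above background in the S phase and mitosis genes, the other cell cycle lists and the marker lists of B, T, red blood and fat cells, with black bars at the medians and the middle 50% of all genes as a gray band. The medians of the first 4 lists lie at 0.18, 0.18, 0.11 and 0.19, those of the B, T, plasma and germinal center B cell lists lie below 0, and those of the red blood cell and fat lists lie at 2.58 and 1.63.

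Markers of the B and T cells known to divide in lymph nodes are given beside these values, and 47.9% of all genes were below 0. Of 10 germinal center B cell markers above background, 3 were above 0, with a median log2 difference of -0.16 and a summed level of 108 times the 75th percentile in C and 98.8 times in RS. Of 12 T cell markers, 3 were above 0, with a median of -0.16 and a summed level of 197 in C and 185 in RS. Of 9 B cell markers, 3 were above 0 with a median of -0.052, and of 7 plasma cell markers, 3 were above 0 with a median of -0.24. The markers were mixed within a list. The examples that follow were chosen after their values were seen. Il7r, a cytokine receptor of T cells, had a log2 difference of 0.97, the costimulatory receptor Cd28 had 0.57, and Prdm1, a regulator of plasma cells, had 0.72. In the other direction, the T cell markers Cd5 and Cd2 had log2 differences of -0.97 and -0.64. The B cell marker Fcer2 had -0.62 and the plasma cell marker Sdc1 had -0.31. Bcl6, the defining transcription factor of germinal center B cells, had a signal of 4942 in C and 4028 in RS, a log2 difference of -0.20. This was within its spot error of 0.20. In the same list, S1pr2 had 0.30 (spot error 0.20) and Gcsam had 0.24 (spot error 0.14), whereas 7 of the 10 markers were below 0. The B and T cell markers were above background on both arrays, as was Glycam1, a product of lymph node venules, with a signal of 16635 in C and 18205 in RS, and so were the lymphoid chemokine genes Ccl19, Ccl21 and Cxcl13.

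Markers of red blood cells and fat were higher in RS by far larger amounts. All 6 red blood cell markers above background were above 0, with a median of 2.58 and a summed level of 52.9 in C and 317 in RS, whereas the membrane genes Slc4a1 and Epb42 were not well above background. All 9 fat markers above background were above 0, with a median of 1.63 and a summed level of 50.3 in C and 117 in RS, and Plin1 was not well above background. Of 9 neutrophil markers, 4 were above background on both arrays and Cxcr2 was so on the RS array alone. Their summed level, Cxcr2 included, was 0.613 in C and 4.54 in RS, but the markers did not rise as a group. S100a8 and S100a9 had log2 differences of 3.99 and 3.78, and Cxcr2 had 0.73. Csf3r had 0.11, within its spot error of 0.29, and Ltf was lower at -0.97. The granule genes Mpo, Elane, Ngp and Camp were not well above background. The part of these cells in the differences of the 39 genes was not tested.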

How the data were processed

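Gene expression in cervical lymph nodes was measured on 1 array of the C group and 1 of the RS group, both on 1 slide and from 1 scan. The authors deposited spot intensity values from Agilent Feature Extraction 11.5.1.1, with background subtracted and no normalization between arrays. The deposited table of log2 values per probe equaled log2 intensity minus the 75th percentile of its array, with 100% of 45598 probes within 0.1. The files hold no columns of fold changes.

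From the intensity values, control spots and outlier spots (489 in C, 660 in RS) were left out, log2 values were averaged by probe, and the 75th percentile over probes (189 in C, 176 in RS) was subtracted. A probe was well above background if over 50% of its spots carried that mark from Feature Extraction. Of the 45598 probes, 54.7% were well above background in C and 54.9% in RS, with lowest such signals of 9.45 and 8.52. A gene was its probe with the highest mean signal. The number of arrays limits the precision.

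The members and lists were chosen with earlier results of these data known. Full values were given, for each class, for the 5 largest increases, the 5 largest decreases and the 3 brightest genes, and for genes with probes of mixed direction. Among the other lists, genes past 2-fold were named (at most 5 per direction), and others were chosen after their values were seen. Gene accessions of 37 of the 39 matched the RefSeq table. Alternatives were other scalings, normexp (limma 3.58.1, R 4.3.3, offset 50), the deposited table, other choices of probes, spots, filters and thresholds, and classes without single genes. The steps were tested on simulated data. Calculations used Python 3.11.15, numpy 2.4.6, pandas 2.3.3 and matplotlib 3.10.9.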

Additional observations from a re-analysis of the deposited data

How the results depend on the processing

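With 1 array in each group nothing could be left out, and no difference between animals could be estimated. No paired analysis was possible because with a single array in C and in RS there is only 1 pair. The class medians stayed above 0, and above the median of all genes, in every setting tried. They moved most without normalization between arrays, to 0.081 for S phase and 0.077 for mitosis, where the median of all genes was -0.083. In that setting 31 of 39 genes were above 0, compared with 38.1% of all genes. The 75th percentile over spots gave 0.127 and 0.123. Leaving out all probes with runs of alternating A and G also moved the 75th percentile and so every gene. It gave medians of 0.135 and 0.135, with Mcm3 at -0.11 and no probe for Ttk. In that setting 35 of 38 genes were above 0, compared with 46.9% of all genes. With the reported scaling kept, the genes without such runs had medians of 0.18 and 0.18. Averaging all probes that a gene has put Aurka at -0.073 and Gins2 at -0.17. Thus 33 of 39 genes were above 0, compared with 51.8% of all genes. A threshold of 2 spot errors in place of 2-fold gave 10 higher genes and 1 lower, compared with 10.6% and 9.98% of all genes. A threshold of 1.5-fold gave 0 in each direction, but no share of all genes is given at that size, so this count has no comparison. The counts beyond 2 spot errors under the other settings were added after seeing the data. They were 1 higher and 3 lower without normalization, compared with 7.68% and 14.3% of all genes. With the 75th percentile over spots they were 6 and 2, compared with 8.92% and 12.1%. Without the run probes they were 5 and 0 of 38 genes, compared with 9.35% and 9.93%. With the mean over probes they were 10 and 2, compared with 10.6% and 10.1%. Otherwise from 9 to 13 were higher and 1 was lower, compared with 5.65% to 11.8% and 5.23% to 10.8%. The S phase median minus the mitosis median stayed between -0.010 and 0.0041, and its sign changed with quantile normalization (-0.0024), normexp (-0.0066) and the mean over probes. Of 467 values of single genes under the alternatives, 453 lay within the gene's own spot error of the value reported. This count is not a measure of stability, because the filter settings could not change the values of genes above background on both arrays. Without normalization, the genes read from 8 to 10 spots moved by more than their spot error. These were Mcm2, Mcm3, Mcm5, Mcm7, Rrm1, Rrm2, Mki67, Cdk1 and Plk1. For other mitosis genes, 54 of 55 were above 0, and 41 without normalization and 46 with the 75th percentile over spots. For other S phase genes the count went from 30 of 42 to 22 and 27. Of all genes, 38.1% and 44.5% were above 0 in these settings. Genes with 1 spot and a low signal, such as Cdt1 and Gins2, could not show a difference of the size seen here.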

Other observations

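Another list held 47 regulators of G1, the phase before S phase, and of the brakes on division. Of its 46 genes above background, 28 were above 0, compared with 52.1% of all genes, and the median log2 difference was 0.018, close to the 0.016 of all genes. Cdkn1a, which encodes the inhibitor p21 of cyclin-dependent kinases, had a signal of 230 in C and 514 in RS, a log2 difference of 1.26 (spot error 0.069). Mycn, a transcription factor of the Myc family, had a signal of 33.4 in C and 14.0 in RS, a log2 difference of -1.16 (spot error 0.30). These were the genes past 2-fold in the list, a size reached upward by 3.46% and downward by 4.28% of all genes. Others, chosen after their values were seen, were Ccnd2, the gene of cyclin D2, with a signal of 706 in C and 1152 in RS and a log2 difference of 0.80 (spot error 0.20), and Myc, with 936 and 1435 and a log2 difference of 0.72 (spot error 0.14). E2f2, an activating E2F factor, had a signal of 2881 in C and 2028 in RS, a log2 difference of -0.41 (spot error 0.20).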
